A study of Mus musculus with 8 samples.

Results

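Oxidative phosphorylation subunits are the protein parts of the 5 mitochondrial complexes that move electrons from NADH and succinate to oxygen and make ATP. Members were taken by gene symbol, as every row of the deposited table named for a subunit of complexes I to V (the Nduf, Sdh, Uqcr, Cox4 to Cox8 and Atp5 symbols, and the mitochondrial mt-Nd, mt-Co, mt-Cytb and mt-Atp symbols). This gave 85 of the 23337 genes in the table, with 37 in complex I, 4 in complex II, 8 in complex III, 19 in complex IV and 17 in complex V. All 85 are nuclear genes. No row matched a mitochondrially encoded symbol, so those subunits were not analysed here.

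The study sequenced RNA from cells that were sorted as endothelial, the lining of blood vessels, from whole mouse embryos at embryonic day E15.5. The mice are described as Cdh5-CreERT2(PAC);Rosa26fsTRAP, which pairs a Cre that tamoxifen switches on, under the promoter of the endothelial cadherin gene Cdh5, with a Cre-dependent allele at Rosa26, although each sample's genotype is given as wild type. In 1 group the pregnant females were gavaged with tamoxifen at E12.5, and in the other they were not. No group received tamoxifen without the Cre transgene, so an action of the drug and an action of the recombinase cannot be told apart. The labels name 8 samples, 4 per group, and do not say whether they came from separate litters or embryos. The p-values therefore reflect the spread among these samples alone, and that spread may be technical. The header of the table is 1 field short, with 9 fields over lines of 10. Counting the gene symbol as column 1, columns 3 to 5 are without tamoxifen and columns 7 to 9 with tamoxifen wherever the header is placed. These 6 libraries, 3 per group, were compared. Columns 6 and 10, whose group or name depends on the placement, are shown apart.

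Complex I oxidises NADH and complex II oxidises succinate, and both pass electrons to ubiquinone. Complex III hands them to cytochrome c, complex IV reduces oxygen with them, and complex V, the ATP synthase, uses the resulting proton gradient to make ATP. Most subunits are encoded in the nucleus and imported, and several have tissue-restricted isoforms, among them muscle and testis forms of complex IV subunits. Endothelial cells are known for making much of their ATP by glycolysis while keeping working mitochondria.

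The 6 libraries held 12212472 to 19908404 reads in genes, of which 29.4% to 38.7% were the ribosomal RNA precursor Rn45s. All 10 endothelial markers examined were detected in every library, with sums of 7968 to 20443 normalised reads. The 10 macrophage markers were also all detected and summed higher, to 34136 to 54031, so a level cannot be assigned to endothelial cells alone. In bulk samples of this kind, fewer cells of a type and less RNA per cell cannot be told apart. Column 6 stood apart, with 8695745 reads, 45.7% of them Rn45s, an endothelial marker sum of 3708 and a sum of 450099 for 10 mesenchymal markers. The macrophage markers summed to 824 there, 7 cartilage markers to 142678 and 7 erythroid markers to 139161.

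Promoter sequence was read for motifs of known regulators of mitochondrial genes. RefSeq windows on GRCm38.p6, from 250 bases before to 50 after the annotated start, matched 69 of the 85 members. Motifs for 4 such regulators were searched on both strands, and overlapping matches counted as 1 promoter. GCGCANGCG, the motif of nuclear respiratory factor 1 (NRF1), lay in 20 of the 69 windows (29.0%), against 7.03% of the windows of all 27025 genes. AANATGGCG (YY1) lay in 11 (15.9%, all genes 2.76%), CCGGAAGTG (GABPA) in 2 (2.90%, all genes 2.25%) and TCAAGGTCA (ESRRA) in 2 (2.90%, all genes 0.466%). All 4 motifs were in a minority of member windows, and the GABPA share was near that of all genes. A match is a description of letters and not a binding site. For each complex, the stretch printed is from the member of lowest p with a match in the 60 to 120 bases nearest the start that hold no annotated exon. No member of complex II met that condition. Capitals mark the matched motif, which is NRF1 in Ndufa11 (2 overlapping matches, the first at -60 from the start), Cox6a1 (-117) and Atp5h (-141), and GABPA in Uqcrh (-12). The stretches lie at chr17:56717686-56717761 on the plus strand for Ndufa11, and on the minus strand at chr4:116075072-116075191 for Uqcrh, chr5:115348982-115349101 for Cox6a1 and chr11:115419963-115420082 for Atp5h.
Ndufa11: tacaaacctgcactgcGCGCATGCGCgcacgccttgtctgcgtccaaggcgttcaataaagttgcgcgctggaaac
Uqcrh: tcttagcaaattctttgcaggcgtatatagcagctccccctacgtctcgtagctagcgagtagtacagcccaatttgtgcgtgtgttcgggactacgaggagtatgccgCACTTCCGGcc
Cox6a1: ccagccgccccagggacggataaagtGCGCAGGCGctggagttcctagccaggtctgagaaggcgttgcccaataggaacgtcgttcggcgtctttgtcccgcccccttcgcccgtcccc
Atp5h: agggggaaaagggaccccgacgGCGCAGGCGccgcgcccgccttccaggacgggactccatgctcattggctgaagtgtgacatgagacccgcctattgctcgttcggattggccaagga

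Members differed widely in level. On the scale of normalised reads per kb of transcript, averaged over the 6 libraries, complex V genes had the highest median level (1129) and complex I genes the lowest (451), with 625 for complex II, 885 for complex III and 763 for complex IV. The length used was the median annotated protein-coding transcript, for example 2675.5 bases for Atp5g1 and 586 for Atp5g2. A place in this order rests on that choice, which the SDs between libraries do not cover. Atp5b, the catalytic beta subunit of ATP synthase, had the highest level of all members at 4585 ± 313 (SD, n = 6) per kb. Cox4i1, a regulatory subunit of cytochrome c oxidase, followed with 3503 ± 506, and Atp5a1, the alpha subunit of ATP synthase, with 3043 ± 314. Cox8a had 2348 ± 192, Cox6a1 2271 ± 324 and Atp5g3 2076 ± 186. The neighbours in this order of 6 genes overlapped within their SDs from Atp5a1 against Cox4i1 and from Cox8a to Atp5g3, while Atp5b lay above Cox4i1 and Atp5a1 above Cox8a by more than the sum of their SDs. The highest member of complex I was Ndufa4 at 1336 ± 142, a protein first assigned to complex I and now placed in complex IV. Uqcrq led complex III with 1192 ± 75.2 and Sdha, the flavoprotein of succinate dehydrogenase, led complex II with 936 ± 135.

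**Figure D1:**
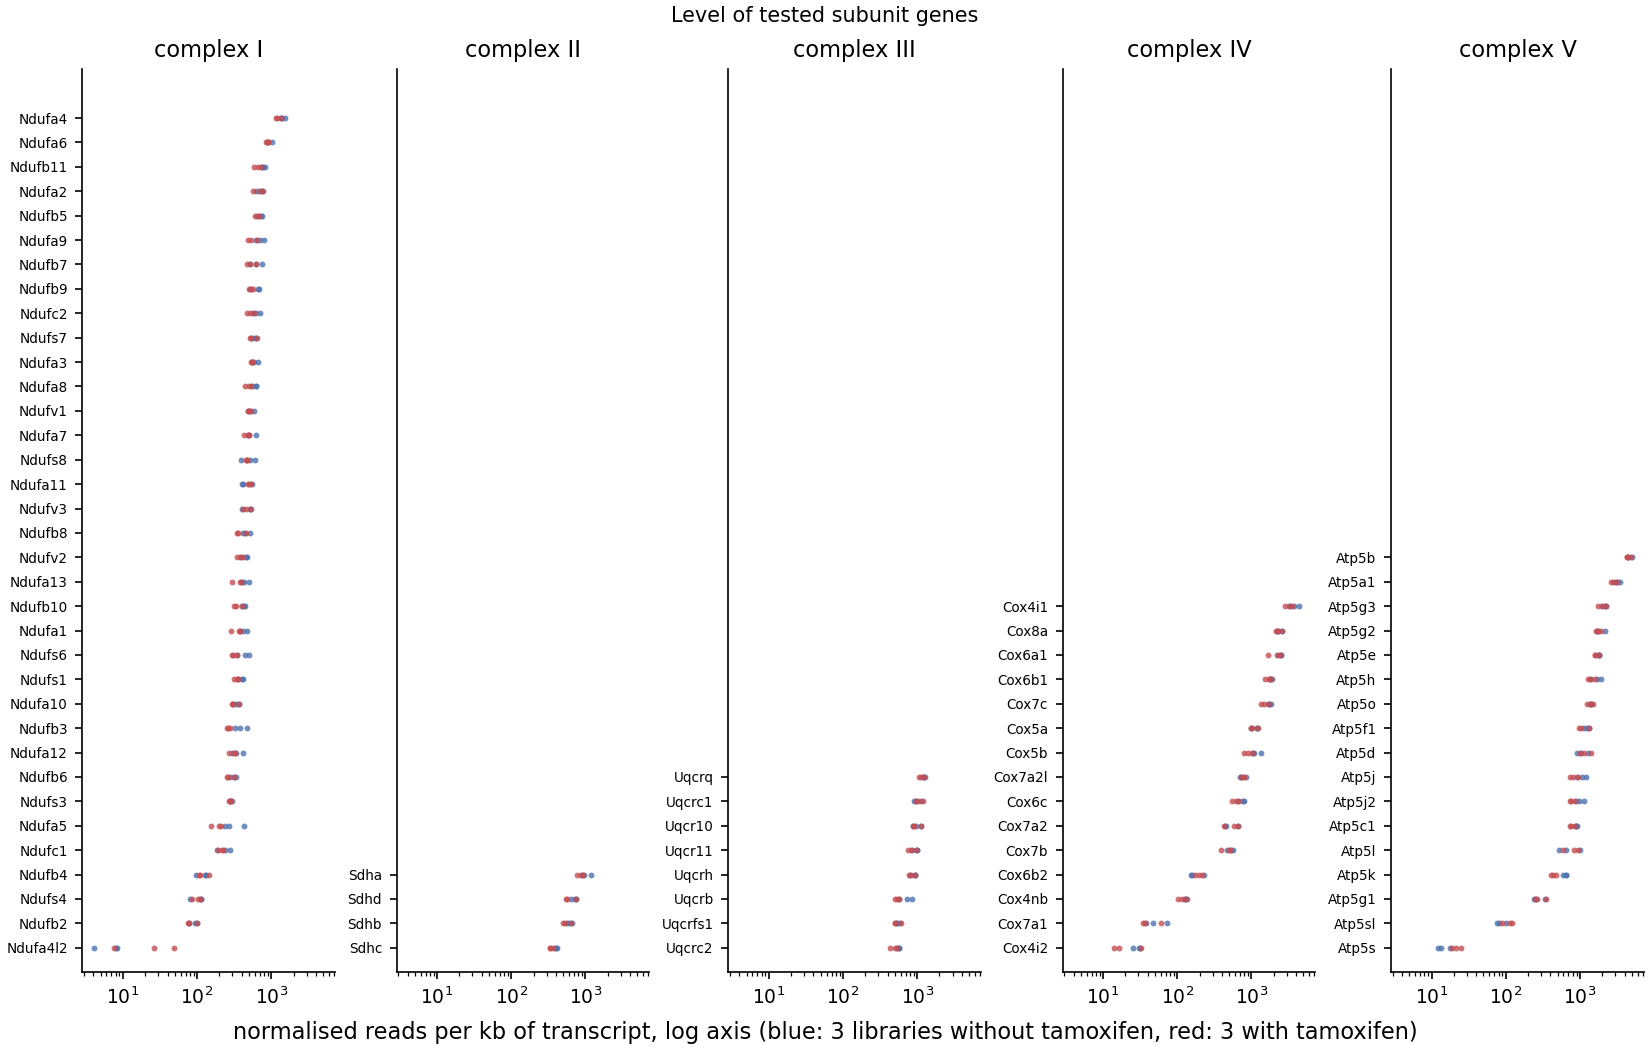
Level of 79 of the 80 tested subunit genes, by complex, as normalised reads per kb of transcript on a log axis, with 1 point per library (blue, 3 libraries without tamoxifen, red, 3 with tamoxifen). Atp5b lies furthest right at a mean of 4585, and Ndufa4l2 (17.1) and Atp5s (18.2) lie furthest left.

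Tissue-restricted isoforms were low beside their common counterparts. Cox4i2, a lung isoform of subunit 4, gave 0.439% to 0.941% of the reads of Cox4i1 and Cox4i2 together in the 6 libraries. The muscle isoform Cox6a2 gave 0.243% to 1.39% of its pair with Cox6a1, and the muscle isoform Cox8b gave 0.139% to 0.438% of the Cox8 reads. Cox7a1, a heart and skeletal muscle form, gave 1.21% to 2.59% of the Cox7a reads, of which Cox7a2l, a supercomplex assembly factor, gave 64.2% to 73.9%. Cox6b2, a testis isoform, was the exception among the low partners at 7.14% to 9.87% of its pair with Cox6b1. No read was counted for Cox7b2 or Cox8c in any of the 6 libraries. Subunit c of ATP synthase is encoded by 3 genes with the same mature protein, and Atp5g3 gave 43.4% to 46.5% of their reads, Atp5g2 29.0% to 36.3% and Atp5g1 19.4% to 25.6%. Of its 50-base transcript stretches, Atp5g3 shares 0% with other annotated genes, Atp5g2 38.3% and Atp5g1 11.1%. Reads may have been split, so the order of these 3 genes is uncertain. In column 6, Cox6b2 was at 31.1% of its pair (61 reads) and Cox7a1 at 8.22% of its set (18 reads). Cox4i2 was at 2.14% (12 reads), Cox8b at 2.65% (6 reads) and Cox7b2 at 1.28% (1 read). Each of these was above its range in the 6 libraries, while Cox6a2 and Cox8c had no read there.

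The comparison asked whether these subunit genes differ in level in cells sorted after tamoxifen. Of the 85 members, 80 averaged 10 or more normalised reads in the 6 libraries and were tested. The 5 left out were Cox7b2 and Cox8c (0), Ndufs5 (0.424), Cox8b (4.13) and Cox6a2 (6.72), and the lowest tested were Ndufa4l2 (16.0) and Cox4i2 (18.2). Ndufs5 is a complex I subunit that shares 21.7% of its 50-base stretches with the annotated gene BC002163. The part of this sharing in its low value was not tested, and the value is left as uncertain.

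No member passed the test. With limma on log2(normalised reads + 1) and Benjamini-Hochberg adjustment over 13480 genes at 0.05, 0 members were higher and 0 lower with tamoxifen, and the lowest adjusted p was 0.462. Across all genes 0.0445% were called higher and 0% lower. At an unadjusted limma p under 0.05, 10 members were lower and 0 higher, beside 4.12% of all genes lower and 4.89% higher. edgeR on recovered reads called no member either, where it called 0.0371% of all genes higher and 0% lower. DESeq2 on the same reads called no member, where it called 1.83% of all genes higher (247 of 13479) and 0.208% lower (28).

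Most differences were small and negative. The difference was below 0 for 68 of 80 members (85%) and for 53.5% of all tested genes. The median member difference was -0.16 on the log2 scale, a level 10.4% lower, and the median over all tested genes was -0.02. By complex, 33 of 36 tested members of complex I were negative (median -0.17), 4 of 4 in complex II (-0.22), 7 of 8 in complex III (-0.10), 12 of 15 in complex IV (-0.16) and 12 of 17 in complex V (-0.11). Every tamoxifen library lay below every library without it for 15 members (18.75%), where 7.62% of all tested genes did, and above for 1 member, Atp5s, where 6.24% of all genes did. These shares describe the table and were not tested. The 95% limma interval lay within 1.5-fold in both directions for 57 members and included 0 for 70.

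**Figure D2:**
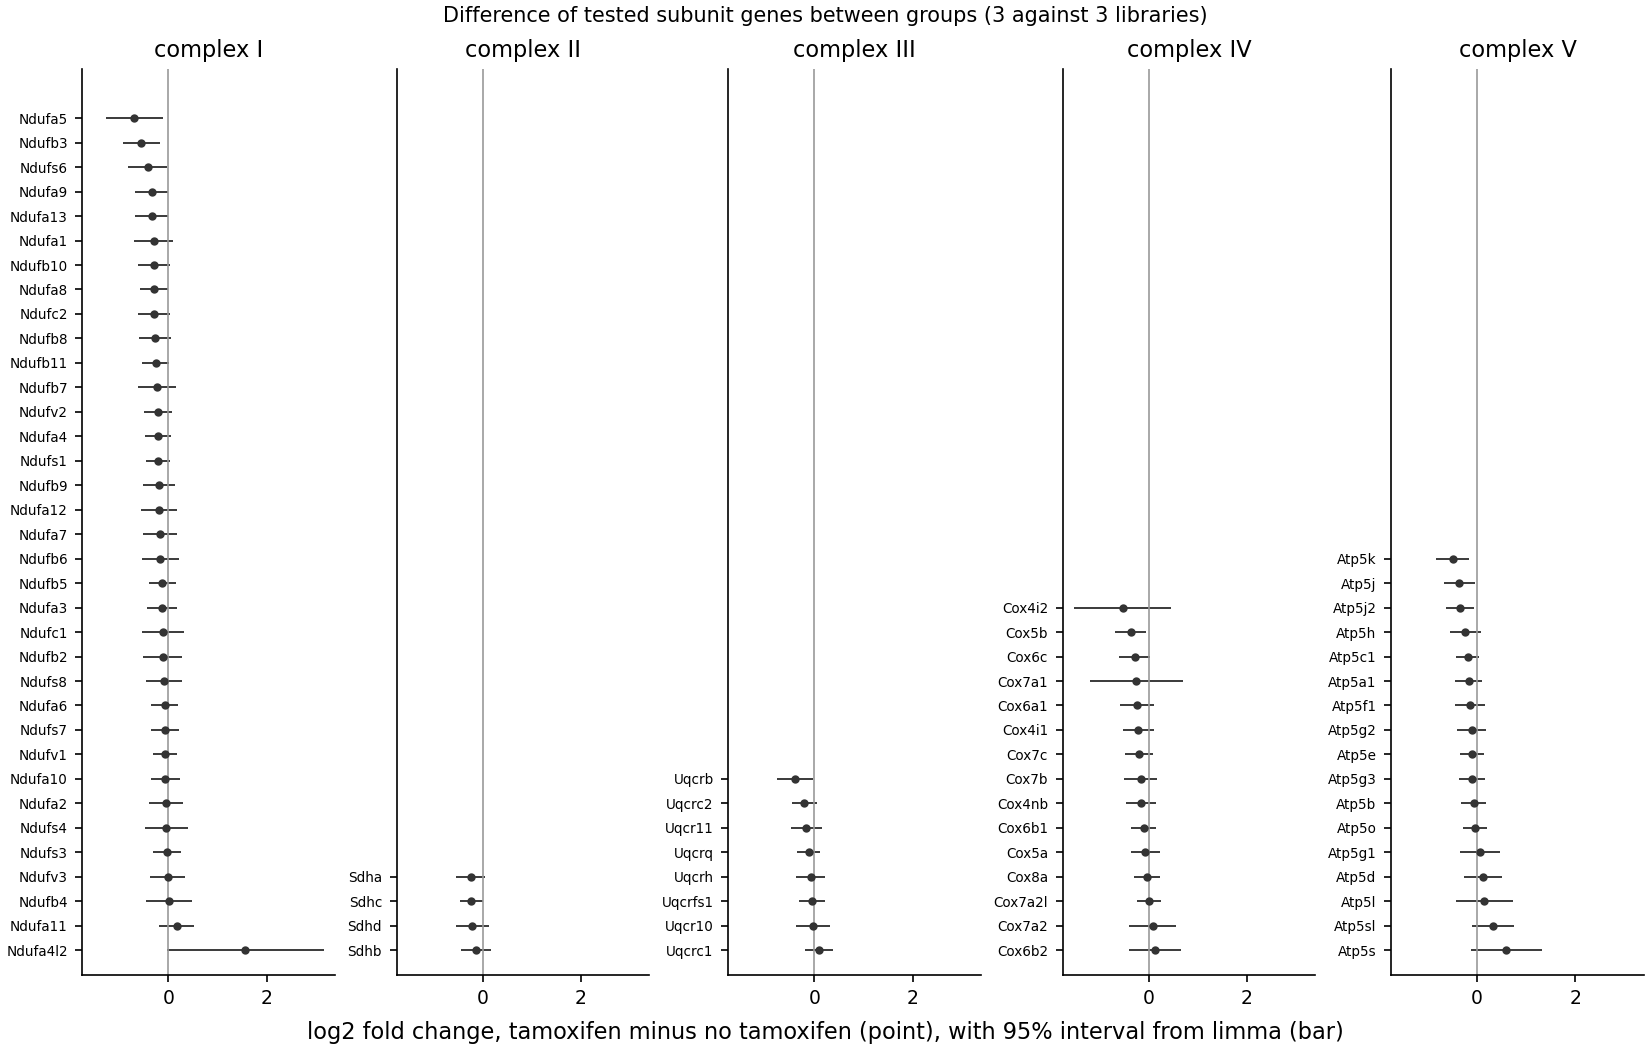
Difference of 79 of the 80 tested genes on the log2(normalised reads + 1) scale, tamoxifen minus no tamoxifen, by complex, with the limma 95% interval as a bar. Of the points, 67 lie left of 0, and Ndufa4l2 (1.57) and Ndufa5 (-0.70) are the farthest from it.

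The lower member sums were those of tamoxifen libraries 1 and 2 (columns 7 and 8), although single members could be lowest in library 3. The summed normalised reads of all 85 members were 67160, 71345 and 66499 without tamoxifen, and 58291, 59579 and 68102 with it. Tamoxifen library 3 thus lay inside the range without tamoxifen, and libraries 1 and 2 lay below it. Relative to the mean without tamoxifen, the median member stood at -0.22, -0.18 and -0.02 (log2) in tamoxifen libraries 1 to 3. In these libraries 53, 53 and 21 of the 80 members were below all 3 libraries without tamoxifen, beside 34.3%, 35.01% and 26.7% of all tested genes. Without tamoxifen library 3 the median member difference was -0.22, and limma called 3 members lower (Cox5b, Ndufa9 and Atp5j), beside 3.48% of all genes. It called 1 member higher, beside 7.22% of all genes. That member was Ndufa4l2, which entered the test only through its high tamoxifen values.

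Marker sums of several cell types also differed between the tamoxifen libraries. The 10 mesenchymal markers summed to 2016 to 4328 without tamoxifen, and to 56326, 87053 and 4487 with it, and 10 of 10, 10 of 10 and 4 of 10 of them were above all 3 libraries without tamoxifen. The 7 cartilage markers summed to 536 to 758 without tamoxifen and to 17862, 15376 and 731 with it, and 7, 7 and 2 of them were above that range. No marker of either list was at 0 in any library. The 10 endothelial markers summed to 12034 to 19890 without tamoxifen and to 19554, 20443 and 7968 with it, and 6, 6 and 0 of them were above all 3 libraries without tamoxifen. Macrophage markers summed to 45022 to 52023 without tamoxifen and to 36035, 34136 and 54031 with it, with 0, 0 and 7 of 10 above. Tamoxifen library 3, whose member sum lay within the range without tamoxifen, thus had the lowest endothelial and the highest macrophage sum of the 6. The 7 mural markers summed to 463 to 690 without tamoxifen and 1275, 1381 and 588 with it, and the 6 neural markers to 36.4 to 44.3 and to 90.2, 67.5 and 26.7. Above all 3 libraries without tamoxifen were 6, 7 and 1 of the mural and 4, 3 and 0 of the neural markers. Among 9 muscle markers the sums were 186 to 204 without tamoxifen and 291, 238 and 126 with it, with 6, 4 and 1 of them above. Ttn, the highest of these, had 135 to 144 without tamoxifen and 203, 126 and 82.1 with it. The 7 erythroid markers found summed to 179 to 349 without tamoxifen and 1088, 1362 and 405 with it, with Hba-a1 and Hba-a2 at 0 in all 6 libraries. Of the erythroid markers 4, 4 and 1 were above all 3 libraries without tamoxifen. Beta-s had 58.3 to 110 without tamoxifen and 849, 1000 and 91.9 with it. Hbb-y went the other way in tamoxifen libraries 1 and 2, with 46.9, 54.0 and 170 without tamoxifen and 16.4, 14.3 and 257 with it. The part of these cells in the member values was not tested.

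**Figure D3:**
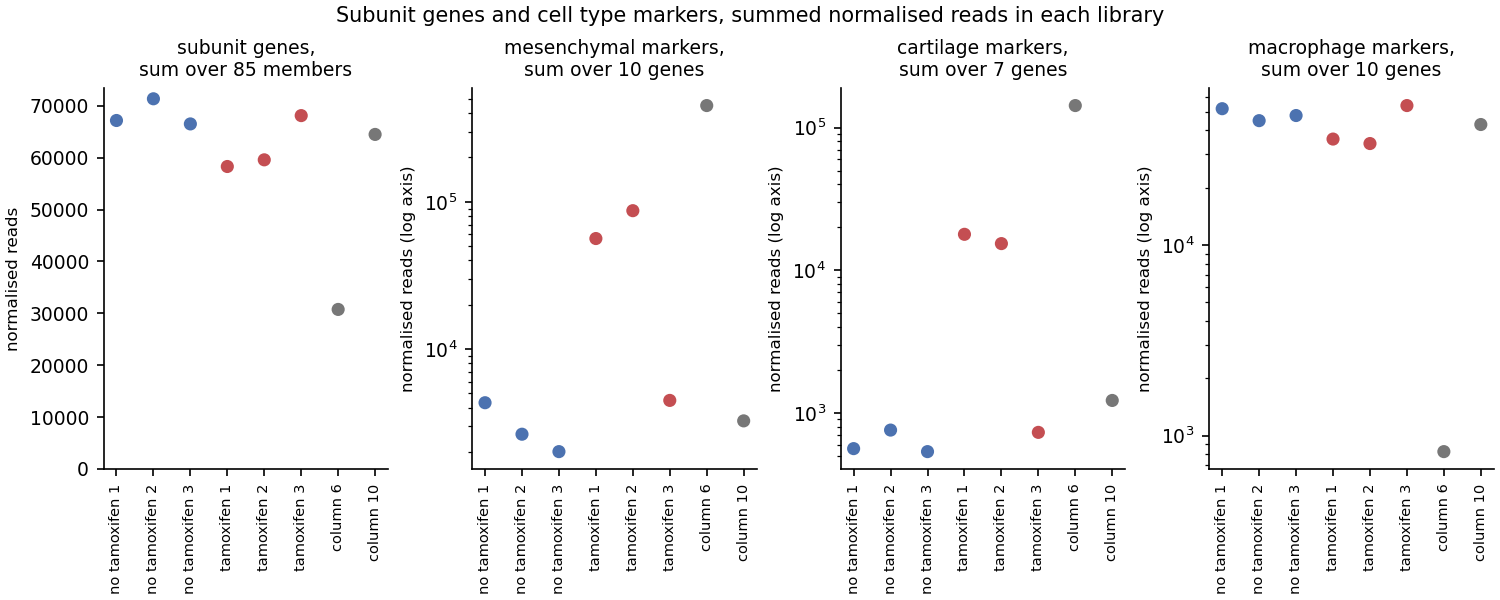
Summed normalised reads of the 85 subunit genes (linear axis from 0) and of the mesenchymal, cartilage and macrophage markers (log axes) in each library, with 1 point per library. Tamoxifen libraries 1 and 2 have the lowest subunit sums of the 6 (58291 and 59579) and the highest mesenchymal sums (56326 and 87053). In column 10 the subunit sum is 64474 and the mesenchymal sum 3259.

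The direction depended on where the short header was placed, which sets the group of column 6. With the 8 names over the last 8 value columns, column 6 counts as without tamoxifen and column 10 as with it. The median member difference in that placement was 0.18 and 19 of 80 members were negative. Adding column 10 but not column 6 gave a median of -0.16, with 73 of 80 members negative. With the names over the first 8, which counts column 6 as with tamoxifen, columns 3 to 5 were compared with columns 6 to 9. The column 2 library, named there as without tamoxifen, was left out, so this is not the whole of that reading. The median was then -0.42 and 76 of 80 were negative. No member was called by limma in either placement. Among all 13480 genes, limma called 4 higher and 0 lower with the names over the last 8. It called 0 higher and 0 lower with the names over the first 8. Column 6 held 30742 normalised reads of members, and its median member stood at -1.29 (log2) from the mean without tamoxifen, or 0.410-fold. It was below all 6 libraries for 74 of 80 members (92.5%), beside 43.5% of all tested genes. All 5 complexes shared this, with medians of -1.15, -1.35, -1.49, -1.21 and -1.34 for complexes I to V. Column 10 held 64474, below the sums of all 3 libraries without tamoxifen, with a median member at -0.14. There 39 of 80 members (48.75%) were below all 3 libraries without tamoxifen, beside 29.4% of all tested genes. Its mesenchymal markers summed to 3259, within the range without tamoxifen, and its cartilage markers to 1223, above it. Its endothelial (5002) and macrophage (42964) sums were below the ranges without tamoxifen.

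**Figure D4:**
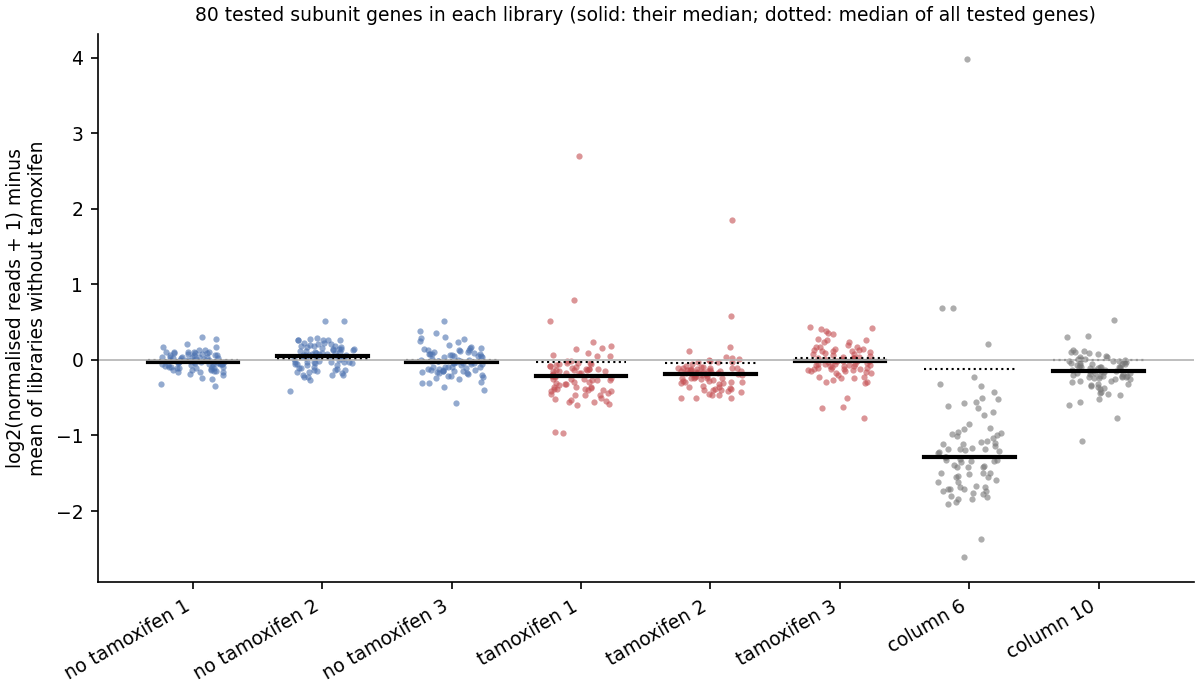
Each of the 80 tested genes in each library, as log2(normalised reads + 1) minus its mean over the 3 libraries without tamoxifen (points), with the median of these genes (solid line) and of all tested genes (dotted line). The member medians are -0.22, -0.18 and -0.02 in the 3 tamoxifen libraries and -1.29 in column 6.

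Complex I has a matrix arm with the NADH-oxidising and quinone-reducing core and a membrane arm with many accessory subunits. Among 6 nuclear core subunits (Ndufv1, Ndufv2, Ndufs1, Ndufs3, Ndufs7 and Ndufs8) the differences ran from -0.22 for Ndufv2 to -0.03 for Ndufs3. Ndufv1, which binds the flavin that accepts electrons from NADH, had 789, 888 and 751 normalised reads without tamoxifen and 742, 807 and 765 with it. The groups overlapped, with a log2 difference of -0.07 ± 0.11 (SE).

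The 2 complex I members of lowest p were accessory subunits. Ndufb3, a membrane arm subunit at chr1:58586384-58595964 (GRCm38), had 292, 363 and 252 normalised reads without tamoxifen (302 ± 56.3, SD, n = 3) and 202, 216 and 191 with it (203 ± 12.1). The groups did not overlap, and the log2 difference was -0.56 ± 0.17 (SE) with a 95% interval of -0.93 to -0.18. It did not pass in limma (adjusted p = 0.462). Column 10 had 278, inside the range without tamoxifen, and column 6 had 57.0. Ndufa5, an accessory subunit of the matrix arm at chr6:24518666-24528013, had 162, 258 and 140.0 without tamoxifen (187 ± 62.8) and 92.2, 126 and 117 with it (112 ± 17.7). All tamoxifen values were lower, although the library at 258 stood far from the other two. Its log2 difference was -0.70 ± 0.25 (SE; limma adjusted p = 0.492). Ndufa9, chosen after its values were seen, had 937, 1073 and 832 without tamoxifen and 661, 714 and 868 with it, so the groups overlapped. Its log2 difference was -0.34 ± 0.14 (SE; limma adjusted p = 0.537). It was among those called lower without tamoxifen library 3 (-0.46, limma adjusted p = 0.0428), a run that called 3.48% of all genes lower.

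Ndufa4, the highest complex I member per kb, had 619.5, 649 and 708 normalised reads without tamoxifen and 628, 533 and 548 with it. The groups overlapped, and the log2 difference was -0.21 ± 0.12 (SE). Its hypoxia-inducible paralog Ndufa4l2, at chr10:127514967-127517154, had 7.81, 7.56 and 3.80 without tamoxifen and 45.1, 24.7 and 7.01 with it. The values were high in the 2 tamoxifen libraries with the mesenchymal markers and within the other group's range in tamoxifen library 3. It had 112 in column 6, from 55 reads, and 2.40 in column 10. Its mean was 6.39 ± 2.24 (SD, n = 3) without tamoxifen and 25.6 ± 19.0 with it, so it passed the minimum mean of 10 only through the group where it was high, and its test supports no direction. The log2 difference of 1.57 ± 0.70 (SE) had a 95% interval of -0.02 to 3.16 and did not pass in limma (adjusted p = 0.551). Its value without tamoxifen library 3 was 2.27 (limma adjusted p = 0.0113), with the same limit. Ndufa4l2 made up 0.534% to 1.24% of the pair's reads without tamoxifen and 6.70%, 4.43% and 1.26% with it. Besides Ndufa4l2, the only positive complex I differences were those of Ndufa11 (0.17), an accessory membrane arm subunit, and Ndufb4 (0.01).

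Complex II, which also works in the citric acid cycle, was negative in all 4 subunits. Sdhc, a membrane anchor at chr1:171127165-171150603, had 819.9, 776 and 808 normalised reads without tamoxifen (801 ± 22.9, SD, n = 3) and 655, 662 and 735 with it (684 ± 44.4). The groups did not overlap, and the log2 difference was -0.23 ± 0.10 (SE; limma adjusted p = 0.557). Sdha, at chr13:74322254-74350280, had 2813, 3408 and 2608 without tamoxifen (2943 ± 416) and 2226, 2570.0 and 2656 with it (2484 ± 227). The value in tamoxifen library 3 exceeded the lowest value without tamoxifen, and the log2 difference was -0.24 ± 0.13 (SE; limma adjusted p = 0.601). Sdhb, the iron-sulfur subunit, differed by -0.14 ± 0.13 (SE) and Sdhd, the other anchor, by -0.21 ± 0.15 (SE). Tamoxifen library 3 lay within the range without tamoxifen for Sdhb, at 736, and just above it for Sdhd, at 929.

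Complex III differences ran from -0.39 to 0.10. Uqcrb, a small subunit near the quinone site at chr13:66900617-66905378, had 384, 449 and 307 normalised reads without tamoxifen (380.4 ± 71.1, SD, n = 3) and 273, 286 and 305 with it (288 ± 16.4). The groups were separate by a narrow margin, and the log2 difference was -0.39 ± 0.16 (SE; limma adjusted p = 0.537). Uqcrb shares 43.4% of its 50-base stretches with other annotated genes, so its reads may have been split. Uqcrc2, a core subunit at chr7:120635176-120659524, had 1071, 1088 and 1027 without tamoxifen (1062 ± 31.6) and 1021, 811 and 946 with it (926 ± 106). Here the lowest tamoxifen value was in library 2, and the log2 difference was -0.20 ± 0.11 (SE; limma adjusted p = 0.614). Its partner core subunit Uqcrc1 had a positive difference, with 1572, 1496 and 1841 without tamoxifen and 1687, 1598 and 1959.7 with it. These groups overlapped (0.10 ± 0.12, SE, log2). The Rieske iron-sulfur subunit Uqcrfs1 differed by -0.05 ± 0.12 (SE), and Uqcrq, with 639, 610.4 and 627 against 538, 574 and 618, by -0.12 ± 0.11 (SE).

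Complex IV members with the lowest p were both nuclear subunits around the catalytic core. Cox5b, on the matrix side and at chr1:36691449-36693681, had 790.4, 992 and 799 normalised reads without tamoxifen (860.4 ± 114, SD, n = 3) and 584, 664 and 757 with it (668 ± 86.5). The groups did not overlap, and the log2 difference was -0.36 ± 0.14 (SE; limma adjusted p = 0.512). Without tamoxifen library 3 it was called (-0.46, limma adjusted p = 0.0475), in a run that called 3.48% of all genes lower. Of the 50-base stretches of Cox5b, 21.8% occur in other genes. Cox6c, at chr15:35925886-35938246, had 482, 474 and 401 without tamoxifen (453 ± 44.8) and 407, 328 and 380.1 with it (372 ± 40.2). The groups overlapped by 1 value, and the log2 difference was -0.28 ± 0.14 (SE; limma adjusted p = 0.576). Cox4i1 had 2816, 3265 and 2432 without tamoxifen and 2148, 2501 and 2705 with it, an overlap with a log2 difference of -0.21 ± 0.14 (SE). Cox6b2 (0.13), Cox7a2 (0.09) and Cox7a2l (0.01) had the positive differences of this complex. Cox4nb, which matched the symbol rule but encodes a membrane protein complex subunit of the endoplasmic reticulum, differed by -0.16 ± 0.14 (SE).

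Complex V has a catalytic F1 head, a peripheral stalk and a membrane part. In the head, Atp5b had 8606, 9739.8 and 8615 normalised reads without tamoxifen and 8299.8, 8184 and 9259.6 with it. The groups overlapped, and the log2 difference was -0.07 ± 0.11 (SE) with a 95% interval of -0.32 to 0.19. The alpha subunit Atp5a1 differed by -0.17 ± 0.12 (SE), the gamma subunit Atp5c1 by -0.19 ± 0.10 (SE), the delta subunit Atp5d by 0.12 ± 0.17 (SE) and the epsilon subunit Atp5e by -0.11 ± 0.11 (SE). In the stalk, Atp5j had 784, 886 and 689 without tamoxifen and 592, 551 and 694 with it. Only its value in tamoxifen library 3 reached the other group. This gene, chosen after its values were seen, had a log2 difference of -0.36 ± 0.14 (SE; limma adjusted p = 0.508). It was called without that library (-0.45, limma adjusted p = 0.0485), in a run that called 3.48% of all genes lower. The other stalk subunits Atp5h (-0.24), Atp5f1 (-0.15) and Atp5o (-0.04) were negative.

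Both complex V members of lowest p sit in the membrane part, where the enzyme forms dimers. Atp5k, subunit e, at chr5:108433244-108434448, had 206, 207 and 191 normalised reads without tamoxifen (201.4 ± 9.01, SD, n = 3) and 132, 155 and 141 with it (143 ± 11.4). All 3 tamoxifen values and column 10, at 159, were below the lowest value without tamoxifen. The log2 difference was -0.50 ± 0.15 (SE) with a 95% interval of -0.83 to -0.16, and it did not pass in limma (adjusted p = 0.462). Atp5j2, subunit f, at chr5:145183698-145192062, had 722, 840.5 and 672 without tamoxifen (745 ± 86.6) and 555, 566 and 633 with it (585 ± 42.3). The groups did not overlap, and the log2 difference was -0.34 ± 0.12 (SE; limma adjusted p = 0.489). Subunit g, Atp5l, differed by 0.14 ± 0.25 (SE) and shares 84.8% of its 50-base stretches with other genes, which makes its value uncertain. The subunit c genes Atp5g1 (0.06), Atp5g2 (-0.11) and Atp5g3 (-0.10) all overlapped between groups. Atp5s and Atp5sl, which match the rule by name but are no structural subunits, had differences of 0.59 ± 0.32 (SE) and 0.32 ± 0.19 (SE).

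**Figure D5:**
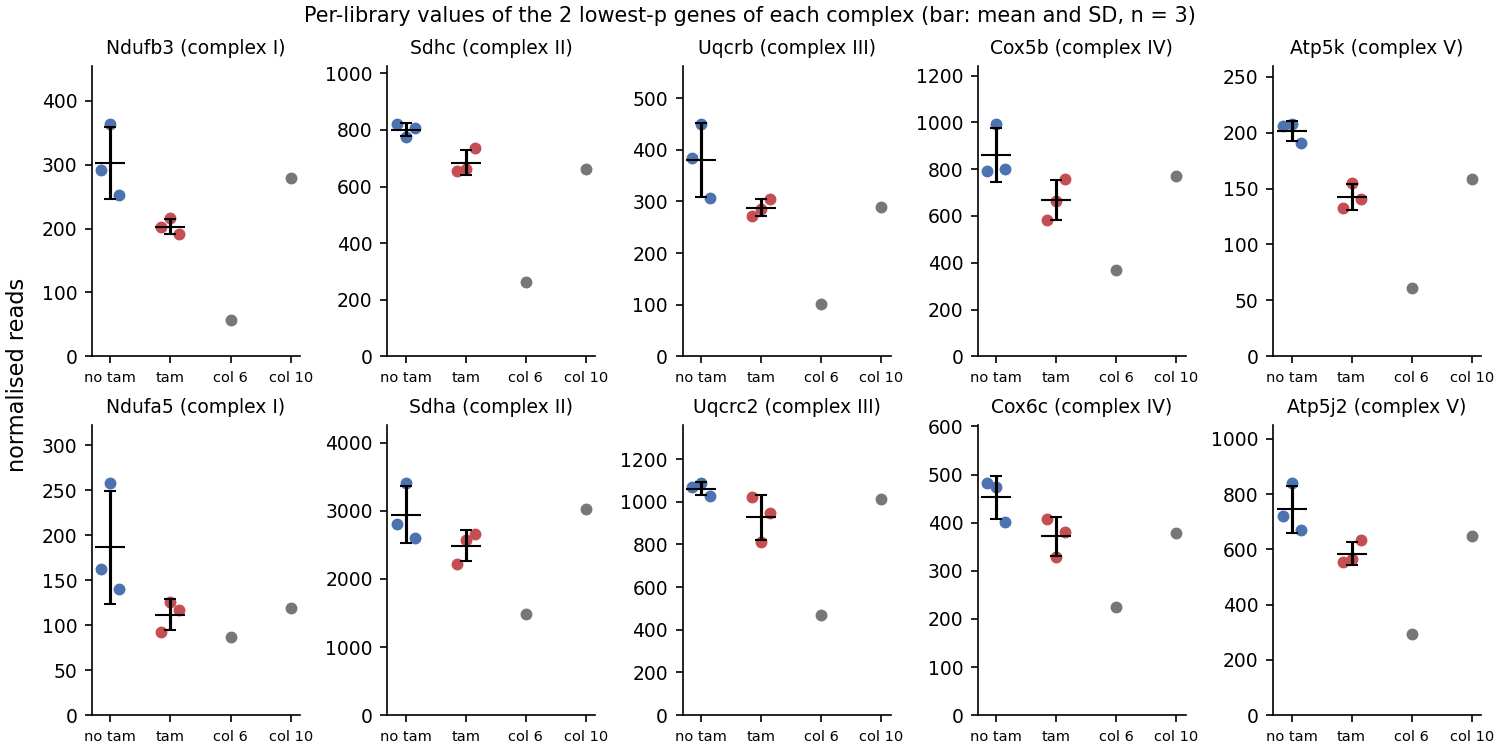
Normalised reads of the 2 lowest-p genes of each complex in each library (points), with the mean and SD of each group of 3 (bars) and columns 6 and 10 apart, on axes from 0. Atp5k has 191 to 207 without tamoxifen and 132 to 155 with it, and in every panel column 6 is the lowest.

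Genes that build or serve the complexes were read from 6 lists, and limma called none of their 208 tested members, with 11 lower (5.29%) and 1 higher (0.481%) at an unadjusted p under 0.05, beside the 4.12% and 4.89% of all genes. Of 47 tested assembly factors 32 were negative (median -0.17), led by AI462493, the table's symbol for Uqcc3, a complex III assembly factor (-0.50 ± 0.19, SE), and on the other side by Cox18, an insertase for complex IV (0.47 ± 0.22, SE). Of 26 electron carriers and subunits outside the symbol rule 15 were negative (median -0.07). Among them Atpif1, the inhibitor of ATP synthase hydrolysis, had 1023, 1206 and 763 normalised reads without tamoxifen and 623, 728 and 706 with it. The groups did not overlap, and the log2 difference of -0.52 ± 0.17 (SE) did not pass in limma (adjusted p = 0.475). Ndufab1, the mitochondrial acyl carrier protein within complex I, had the positive difference of lowest p there (0.31 ± 0.22, SE).

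Of 24 genes for mitochondrial DNA upkeep and expression 16 were negative (median -0.08). The RNA-binding protein gene 1810035L17Rik (Slirp) differed by -0.43 ± 0.18 (SE), and Polg2, the accessory subunit of the mitochondrial DNA polymerase, by 0.42 ± 0.15 (SE; limma adjusted p = 0.476). Regulators of mitochondrial biogenesis were the 1 list with a positive median, with 6 of 16 negative (median 0.05). Their lowest-p members were Gabpa, a transcription factor of subunit promoters (-0.13 ± 0.12, SE), and the deacetylase gene Sirt1 (0.24 ± 0.15, SE). Of 19 citric acid cycle genes 15 were negative (median -0.10), with Dld, the shared dehydrogenase subunit E3 (-0.37 ± 0.16, SE), and Pcx, pyruvate carboxylase (0.44 ± 0.28, SE), at the 2 ends of lowest p. Of 76 mitochondrial ribosomal protein genes 55 were negative (median -0.10), led by Mrps21 (-0.41 ± 0.15, SE) and, among positive ones, Mrps17 (0.27 ± 0.15, SE).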

How the data were processed

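RNA was depleted of ribosomal RNA and sequenced, and the authors deposited 1 table of normalised read counts, a signal unit, per gene symbol. STAR, HTSeq 0.11.2 and DESeq2 and the builds hg38 and mm10 are named, per the submitters' processing notes, without their roles. The sources used here do not say whether counting used the strand. All values used (100%) were whole multiples of 1 step per library within 0.001 reads, so reads were recovered for depth and count tests. Of 9 value columns, 1 (column 2) was used in no comparison, not even for the header placement that names it.

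Genes with a mean of at least 10 over 6 libraries were tested with limma 3.58.1 (R 4.3.3) on log2(value + 1), with a mean-variance trend and group as the only term. This scale understates changes of low genes. Alternatives were edgeR 4.0.16 and DESeq2 1.42.0 on recovered reads, a pseudocount of 10, no filter, a mean of 50, scaling to reads outside Rn45s, a replicate block, other header placements, column 10 added and each library left out. The code was tested on simulated data.

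Members and lists were chosen with earlier results of these data known. Named genes were the 2 lowest-p members and the highest per kb of each complex, the isoform sets, and the lowest-p gene in each direction of each list. Ndufa9 and Atp5j were added after their values were seen. Lengths are the median annotated protein-coding transcript of GENCODE M21 on GRCm38 (mm10), to which all 85 members were matched. Sequence sharing was counted over 50-base stretches of transcripts, and 17 members shared more than 20% of theirs. Promoters are from RefSeq. 1 member is counted in the totals but not reported singly here.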

Additional observations from a re-analysis of the deposited data

Results flagged for a closer look

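Column 6, which no comparison between the 3 and 3 libraries used, had 112 normalised reads of Ndufa4l2 (55 reads) where the highest library without tamoxifen had 7.81. It also had 12.2 of Cox8b (6 reads) where the highest had 5.40. Both were above the level of the libraries without tamoxifen while most other members were below it there.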

How the results depend on the processing

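No member was called in edgeR, in DESeq2, with a pseudocount of 10, without a filter, with a mean of 50, after scaling to reads outside Rn45s, or with column 10 added. DESeq2 called 247 genes higher and 28 lower in the whole table, and each of the others 5 to 8 higher and 0 to 1 lower. Leaving out each library gave 0 to 1 members called higher, 0 to 3 lower and 0 to 2 in the 6 lists, all from the run without tamoxifen library 3 (Atpif1 and Etfb in the lists). In the whole table that run called 973 genes higher (7.22%) and 469 lower (3.48%). The cause was not tested. The median member difference ran from -0.22 to -0.11 over these runs. It was 0.18 with the names over the last 8 value columns, -0.42 with the names over the first 8, and -0.020 for tamoxifen library 3 alone. With the names over the last 8, differences changed sign for Ndufb3 (0.15), Sdhc (0.16), Sdha (0.078), Uqcrb (0.087), Uqcrc2 (0.13), Atp5j2 (0.028), Ndufa4 (0.11), Uqcrq (0.23), Cox4i1 (0.15), Atp5b (0.21) and Ndufa4l2 (-0.086). That placement puts column 6 among the libraries without tamoxifen and column 10 among those with it. Of 271 values of 17 named members under 16 alternatives, 256 kept direction and side of the threshold. Without Cox4nb, Atp5s and Atp5sl the median was -0.16, and without members that share sequence -0.15, both chosen after seeing the data.

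With table position as a replicate block, the median was -0.16, 0 members were called and the lowest adjusted p in limma was 0.221 (all genes 20 higher and 1 lower). Same-position libraries correlated at 0.20, 0.04 and 0.34 in their deviations from the group means. Libraries at unlike positions correlated at 0.04, -0.22, 0.33, -0.33, -0.33 and -0.05. Pairing by number was not settled by these values and was not used in the main test.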
